A study of Homo sapiens with 6 samples.

Results

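Cytokines, chemokines and members of the tumour necrosis factor (TNF) superfamily were described by their transcript levels in a drug-resistant lung cancer line and its parental line. The genes were chosen by symbol, with earlier results of these data known. They were the protein-coding interleukins, CXC and CC chemokines, colony-stimulating factors (CSF), TNF ligands and TNF receptors in the deposited table, with the receptors of these ligands. Genes with a TNFAIP symbol, named as TNF-induced proteins, were also taken. Genes of interleukin-1, interleukin-18, interleukin-36 and interleukin-37, IL4R, the IL13RA chains, IL2RG and CSF1R were left out. This gave 51 of the 6641 listed genes. HCC827_Er, with 3 libraries, is the line that the series title and design set against the parental cells in a study of resistance to kinase inhibitors that target EGFR, a growth factor receptor. HCC827, with 3 libraries, is the parental line, an established lung adenocarcinoma line with an activating EGFR mutation. The labels do not say whether HCC827_Er keeps that mutation. The labels give neither the agent, dose or duration of selection nor whether HCC827_Er is 1 clone or a pool, and they name no separate cultures, so the p-values cover the spread between libraries alone, which may be technical.

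Cytokines and chemokines are secreted proteins that cells use to signal to each other and to recruit leukocytes. Many carcinoma cells make them, often under the control of the transcription factor NF-kB, which TNF and interleukin-1 receptors activate through adapter proteins and ubiquitin ligases. The CXC chemokines with an ELR motif attract neutrophils, and their genes sit side by side on chromosome 4. Interleukin-6 type cytokines signal through JAK kinases and STAT transcription factors.

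The promoter sequences of the CXC cluster are shown because its genes moved in both directions between the lines, including CXCL5 and CXCL6, whose promoters are closely alike. RefSeq promoter windows were matched by symbol for 42 of the 51 genes, 9 of which had more than 1 window. Each sequence is the 130 bases before the annotated start on the gene's own strand, build GRCh38.p14, and capitals mark a match to a kappaB site, the DNA motif that NF-kB binds. The windows are chr4:73998678-73998807, chr4:74038690-74038819 and chr4:74099196-74099325 on the minus strand, and chr4:73869263-73869392 and chr4:73836548-73836677 on the plus strand.
CXCL5: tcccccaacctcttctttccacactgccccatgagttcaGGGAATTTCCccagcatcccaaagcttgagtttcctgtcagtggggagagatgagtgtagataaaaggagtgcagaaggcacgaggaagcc
CXCL3: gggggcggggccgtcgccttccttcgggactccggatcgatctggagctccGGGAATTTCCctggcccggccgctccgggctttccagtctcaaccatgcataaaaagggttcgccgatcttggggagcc
CXCL1: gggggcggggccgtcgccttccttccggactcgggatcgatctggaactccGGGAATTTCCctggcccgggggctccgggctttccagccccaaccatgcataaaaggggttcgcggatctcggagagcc
CXCL2: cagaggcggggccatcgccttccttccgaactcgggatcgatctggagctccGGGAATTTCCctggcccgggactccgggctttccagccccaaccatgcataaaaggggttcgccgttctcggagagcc
CXCL6: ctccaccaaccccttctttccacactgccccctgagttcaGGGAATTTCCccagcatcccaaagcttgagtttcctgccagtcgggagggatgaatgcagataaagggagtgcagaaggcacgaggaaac
All 5 held the 10 bases GGGAATTTCC on the gene's own strand, starting 78 to 91 bases before the start, and overlapping it a consensus match on the opposite strand. These 10 bases were picked as the consensus match found in most of these same 5 genes, so their presence in all 5 is no test. Searched on both strands of 35116 RefSeq windows from 250 bases before to 50 after a start, GGGAATTTCC was found in 0.145% of them. TNFRSF9 was the only other of the 42 genes with it. The CXCL5 and CXCL6 windows were identical at 119 of 129 aligned bases (92.2%), and the CXCL1 and CXCL2 windows at 121 of 129 (93.8%), while CXCL1 and CXCL5 matched at 65 of 118 (55.1%). A pair of genes outside the cluster that moved in opposite directions, IL6 and CCL20, is shown for comparison (chr7:22727070-22727199 and chr2:227813712-227813841, both on the plus strand).
IL6: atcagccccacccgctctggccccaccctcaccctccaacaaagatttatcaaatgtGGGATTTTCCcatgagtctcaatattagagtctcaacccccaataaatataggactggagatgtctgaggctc
CCL20: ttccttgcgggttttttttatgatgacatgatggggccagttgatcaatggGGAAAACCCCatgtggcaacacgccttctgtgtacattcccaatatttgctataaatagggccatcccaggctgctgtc
IL6 held GGGATTTTCC, and CCL20 held GGAAAACCCC, which matches on the opposite strand. The wider kappaB consensus, which includes GGGAATTTCC, was searched on both strands and found in 5.91% of all windows and in 22 of the 51 windows of these genes, for 21 of the 42 genes. By gene it was found for 6 of the 8 genes with a window that were called lower in HCC827_Er and 4 of the 9 called higher. It was also found for 6 of the 13 not called and 5 of the 12 not tested. Of the 6 called lower, 4 were CXCL1, CXCL2, CXCL3 and CXCL5 of the cluster, and CXCL6 was among those called higher. Windows of the cluster are alike in part, so these matches are not independent, and a link to direction was not tested. A match is no evidence of binding.

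Values are FPKM, fragments per kilobase of transcript scaled to the mapped fragments of the library, which allow levels to be compared between genes; sequencing depth is unknown. Differences are of log2(FPKM + 1), HCC827_Er minus HCC827, a scale that understates the change of low genes. To be called, a gene needed a limma adjusted p under 0.05 over the 5276 genes tested and a difference of at least 1 in size, which is 2-fold. The deposited table held few genes without a difference: 98.3% of the tested genes passed the adjusted p alone, and 96.1% of the 6641 listed genes had no overlap between the lines. The listed genes summed to 184633 to 190415 FPKM in HCC827_Er libraries and to 222927 to 224211 FPKM in HCC827 libraries. Rescaling the libraries moved all differences by a median of -0.30 (median ratio) or 0.21 (equal sums), and calls of these genes that this changes are given with the gene. As a check of the labelled cell type, 8 of 10 epithelial markers were listed. Of these 7 were called higher in HCC827_Er, where 24.7% of all tested genes were. EPCAM, a surface protein of epithelia, averaged 297 ± 26.4 FPKM in HCC827_Er and 30.1 ± 0.429 FPKM in HCC827 (SD, n = 3 each). NKX2-1, a transcription factor of lung epithelium, averaged 65.7 ± 4.65 FPKM in HCC827_Er and 5.93 ± 0.898 FPKM in HCC827. SFTPB, a surfactant protein, averaged 39.6 ± 4.88 FPKM in HCC827_Er and 0.213 ± 0.327 FPKM in HCC827. The eighth marker, KRT8, averaged 1025 ± 31.7 FPKM in HCC827_Er and 1744 ± 45.9 FPKM in HCC827 and was not called (difference -0.77); median-ratio rescaling gave 1 of the 8 as lower.

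Of the 51 genes, 36 passed the minimum of FPKM 1 in 3 libraries. They included 8 that had every library of one line under 1 FPKM and so could pass only through the other line. These were CXCL17, CXCL6, IL12A, IL4I1, TNFSF14, TNF, TNFRSF18 and TNFAIP6, and their adjusted p is no separate support. Over all tested genes, 930 passed likewise. Of the 36 genes, 9 were called higher in HCC827_Er, where 24.7% of all tested genes were, and 11 were called lower, where 19.7% of all tested genes were. Together 20 of the 36 were called, against 44.4% of all tested genes. The median difference of the 36 was 0.63, and 0.43 over all tested genes; the median absolute difference was 1.16, and 0.92 over all tested genes. The share called higher was near that of all tested genes and is no result about these genes. By role, 8 of 16 ligands were called lower and 4 higher, with a median of -1.17, while 1 of 15 receptors was called lower and 4 higher, with a median of 0.72. With the rescalings the ligand counts were 10 and 3 (median ratio) or 8 and 5 (equal sums), and the receptor counts 1 and 3 or 0 and 7, and each median kept its sign. Of the 51, 48 had no overlap between the lines, near the share over all listed genes.

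**Figure D1:**
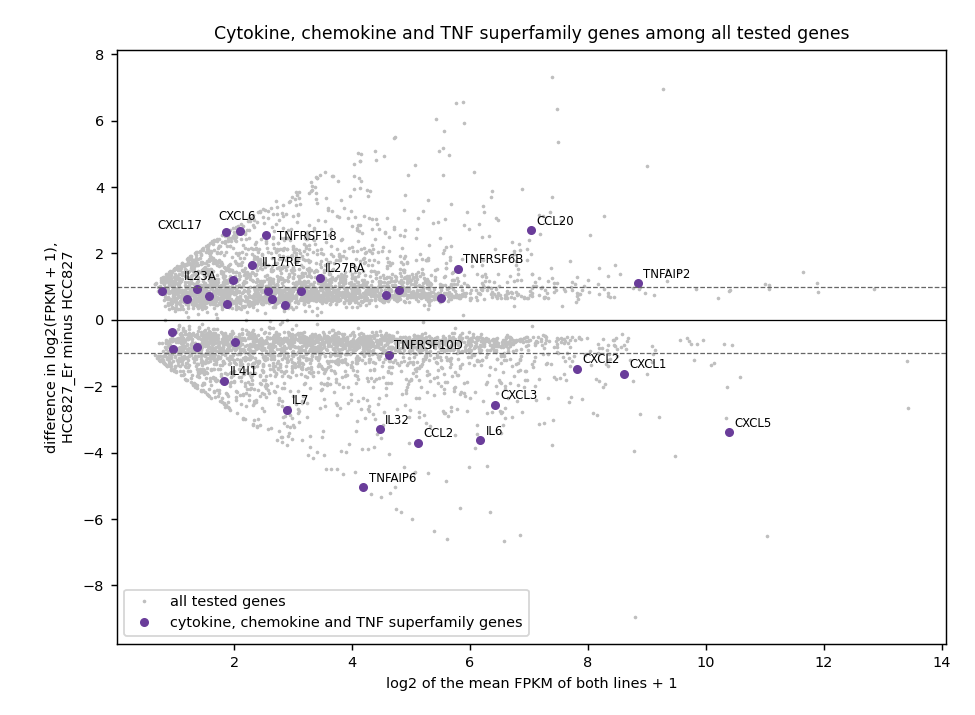
Difference of log2(FPKM + 1), HCC827_Er minus HCC827, against log2 of the mean FPKM of both lines + 1, for 5276 tested genes (grey) and the 36 tested cytokine, chemokine and TNF superfamily genes (purple, labelled where the difference is at least 1 in size, dashed lines). Few grey points lie near 0, and CXCL1, CXCL2, CXCL3 and CXCL5 lie below the lower dashed line at high levels.

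CXC chemokines of the neutrophil-attracting group made up most of the summed FPKM of the 12 listed CXC and CC chemokine genes in HCC827, and 4 of them fell in HCC827_Er while CXCL6 rose. The 5 genes are neighbours within 263 kb of chromosome 4 (73836497 to 74099293, GENCODE 29 on GRCh38), in the order CXCL6, CXCL1, CXCL5, CXCL3 and CXCL2, and no other listed protein-coding gene lies between them. All 5 encode secreted ligands of the receptor CXCR2. CXCL5 (ENSG00000163735) stood at 205, 251 and 253 FPKM in HCC827_Er libraries, against 2323, 2544 and 2507 FPKM in HCC827 libraries. Every HCC827_Er library lay far below every HCC827 library (difference -3.38, SE 0.083, limma adjusted p = 4.07e-09). CXCL3 stood at 23.4, 23.9 and 23.9 FPKM in HCC827_Er and at 158, 147 and 131 FPKM in HCC827 (difference -2.56, SE 0.074). CXCL1 stood at 187, 187 and 197 FPKM in HCC827_Er and at 579, 616 and 560 FPKM in HCC827 (difference -1.62, SE 0.051). CXCL2 stood at 124, 110 and 120 FPKM in HCC827_Er and at 390, 326 and 279 FPKM in HCC827 (difference -1.47, SE 0.11). The lines did not overlap for any of the 4. CXCL6 (ENSG00000124875) went the other way, at 4.44, 6.90 and 7.95 FPKM in HCC827_Er against 0.14, 0.07 and 0.21 FPKM in HCC827 (difference 2.68, SE 0.18, adjusted p = 1.34e-06). CXCL6 passed the minimum for testing through HCC827_Er alone, and remained the lowest of the 5 in both lines.

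The falls differed in size along the cluster. The ratio of CXCL5 to CXCL1 was 1.10, 1.34 and 1.29 in the HCC827_Er libraries and 4.02, 4.13 and 4.48 in the HCC827 libraries. This ratio is taken within a library, so no scaling of libraries changes it. CXCL1, CXCL2 and CXCL3 share between 90.7% and 94.4% of their coding bases in pairwise alignment, so the split of reads among them is uncertain. CXCL5 and CXCL6 share 87.5%, and reads assigned to the wrong gene of this pair were not tested. The ratio of CXCL6 to CXCL5 was 6.03e-05, 2.75e-05 and 8.38e-05 in HCC827 libraries, where CXCL5 was the higher. In HCC827_Er libraries it was 0.0217, 0.0275 and 0.0314. CXCL5 and CXCL6, whose promoter windows above were alike at 92.2% of aligned bases, moved in opposite directions.

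Outside the cluster, CXCL17, a chemokine of mucosal epithelia, was listed at 0 in all 3 HCC827 libraries and stood at 5.32, 4.54 and 5.91 FPKM in HCC827_Er. It was called higher, and no fold is given against values listed at 0. CXCL14, a chemokine of normal epithelia, was listed at 0 in every HCC827_Er library and at 0.12 to 0.32 FPKM in HCC827, under the minimum for testing.

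**Figure D2:**
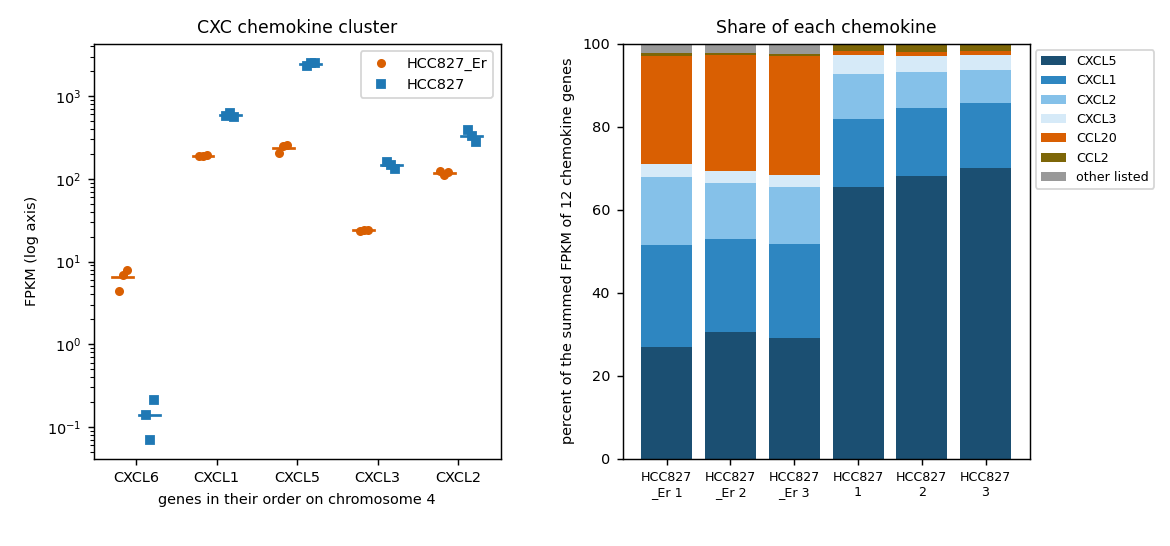
Left: FPKM (log axis) of the 5 CXC chemokine genes of chromosome 4 in their order along the chromosome, 1 point per library, lines at the means; CXCL6 alone is higher in HCC827_Er. Right: share of each gene in the summed FPKM of 12 listed chemokine genes per library; CXCL5 holds 65.5% to 70.1% in HCC827 libraries and 27.0% to 30.4% in HCC827_Er libraries, where CCL20 holds 26.0% to 28.9%.

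CC chemokines were split between 1 marked fall and 1 marked rise. CCL2 (ENSG00000108691, chromosome 17, 34255218 to 34257203), which attracts monocytes, stood at 5.63, 3.73 and 2.77 FPKM in HCC827_Er libraries, against 63.0, 67.1 and 58.9 FPKM in HCC827 libraries. The difference was -3.70 (SE 0.18, adjusted p = 1.75e-07). CCL20 (ENSG00000115009, chromosome 2, 227805739 to 227817564) is the ligand of CCR6 and attracts dendritic cells and T cells of mucosal tissue. It stood at 198, 230 and 252 FPKM in HCC827_Er libraries, against 31.1, 35.1 and 36.1 FPKM in HCC827 libraries (difference 2.69, SE 0.095, adjusted p = 2.44e-08). No HCC827_Er library came near an HCC827 library for either gene.

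The sum of the 12 listed chemokine genes was 760 to 870 FPKM in HCC827_Er libraries and 3549 to 3740 FPKM in HCC827 libraries. CCL20 made up 26.0% to 28.9% of that sum in HCC827_Er and 0.876% to 1.01% in HCC827. The ratio of CCL20 to CXCL5 was 0.964, 0.919 and 0.994 in HCC827_Er libraries and 0.0134, 0.0138 and 0.0144 in HCC827 libraries, so these 2 chemokines stood at nearly equal levels in HCC827_Er. CCL28, a mucosal chemokine, averaged 6.68 ± 0.489 FPKM in HCC827_Er and 3.25 ± 0.412 FPKM in HCC827 (SD, n = 3 each). Its difference of 0.86 was not called, and was called with equal sums (1.06) and with a pseudocount of 0.1 (1.02). CCL22 and CCL25 stayed under the minimum for testing, at up to 1.34 FPKM in HCC827_Er and up to 0.29 FPKM in HCC827. Other chemokine genes, such as CXCL8, were not analysed here.

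Chemokine receptors were barely detected. CCR1, CCR3 and CXCR6, which lie on the same arm of chromosome 3, summed to 1.19 to 1.80 FPKM in HCC827_Er libraries and 0.10 to 0.19 FPKM in HCC827 libraries. None passed the minimum for testing, and every value was under 1 FPKM. For each of the 3, every HCC827_Er library lay above every HCC827 library, as for 50.7% of all listed genes. CXCR2 and CCR6 were not analysed here.

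Of 5 tested interleukins, 3 were called lower in HCC827_Er and 1 higher (4 and 0 with median-ratio rescaling). Over all tested genes, 19.7% were called lower and 24.7% higher. IL6 (ENSG00000136244, chromosome 7, 22725884 to 22732002) encodes interleukin-6, the cytokine that drives the acute phase response and activates STAT3. It stood at 8.17, 9.98 and 11.6 FPKM in HCC827_Er libraries, against 132, 137 and 128 FPKM in HCC827 libraries. The lines were widely apart (difference -3.62, SE 0.11, adjusted p = 1.11e-08). The antisense gene AC073072.1 of GENCODE 29 covers 20.7% of the exonic bases of IL6, and whether the counting used strand is not given in the sources used here. IL32, an intracellular and secreted inducer of other cytokines, stood at 4.04, 2.36 and 3.03 FPKM in HCC827_Er and at 41.2, 39.4 and 36.9 FPKM in HCC827 (difference -3.30, SE 0.14). IL7, which sustains lymphocytes, stood at 0.69, 0.84 and 1.35 FPKM in HCC827_Er and at 11.8, 9.12 and 14.6 FPKM in HCC827 (difference -2.70, SE 0.19). The HCC827 libraries of IL7 all lay well above the HCC827_Er libraries.

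IL12A, a subunit of interleukin-12, averaged 0.837 ± 0.138 FPKM in HCC827_Er and 2.35 ± 0.970 FPKM in HCC827 (SD, n = 3 each). Its difference of -0.83 was not called, and without HCC827 replicate 2 it was called lower (-1.03), as with median-ratio rescaling (-1.02). IL23A, the specific subunit of interleukin-23, averaged 4.32 ± 0.648 FPKM in HCC827_Er and 1.53 ± 1.39 FPKM in HCC827. Its call (difference 1.21, SE 0.33, adjusted p = 0.0068) rested on the HCC827 library at 0.39 FPKM, since without HCC827 replicate 1 the difference was 0.85 and not called. Median-ratio rescaling ended it as well (0.98). IL24 stood at 0.31 to 0.69 FPKM in HCC827_Er and at up to 0.03 FPKM in HCC827. IL34, a ligand of the receptor CSF1R, was listed at 0 in all HCC827_Er libraries and stood at 0.48 to 0.87 FPKM in HCC827. IL4I1 carries an interleukin symbol but encodes a secreted amino acid oxidase. It averaged 0.560 ± 0.0900 FPKM in HCC827_Er and 4.56 ± 0.677 FPKM in HCC827, and fell by 1.83 on the log2 scale (SE 0.13). It shares 13.1% of its exonic bases with NUP62 on the same strand, so its reads are uncertain.

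Of the 11 listed receptor chains of interleukins and CSF, 6 were tested. All 6 had a positive difference, also with both rescalings. Of them 2 were called higher (1 with median-ratio rescaling), where 24.7% of all tested genes were. Of the 11 listed chains, 10 stood higher in every HCC827_Er library than in any HCC827 library; over all 6641 genes 50.7% did so. IL27RA, the specific chain of the interleukin-27 receptor, stood at 14.6, 14.03 and 14.75 FPKM in HCC827_Er, against 6.05, 4.97 and 5.17 FPKM in HCC827 (difference 1.28, SE 0.099, and 0.97 with median-ratio rescaling, not called). IL17RE, a chain of the receptor for the epithelial cytokine interleukin-17C, stood at 6.81, 5.98 and 6.5 FPKM in HCC827_Er and at 1.12, 0.98 and 2.04 FPKM in HCC827 (difference 1.67, SE 0.17). IL20RB, a chain of the receptor for interleukin-20 and interleukin-24, was the most abundant of the 11. It stood at 53.8, 54.0 and 57.1 FPKM in HCC827_Er and at 33.9, 33.2 and 35.6 FPKM in HCC827. The libraries did not overlap, and the difference of 0.67 (SE 0.061) lay under the 2-fold minimum.

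IL31RA averaged 2.71 ± 0.146 FPKM in HCC827_Er and 1.26 ± 0.0115 FPKM in HCC827. IL17RB averaged 3.27 ± 0.530 FPKM in HCC827_Er and 2.06 ± 0.187 FPKM in HCC827. IL11RA averaged 1.71 ± 0.227 FPKM in HCC827_Er and 0.867 ± 0.826 FPKM in HCC827. None of these was called, but with a pseudocount of 0.1 IL31RA (1.05) and IL11RA (1.22) were called higher. For IL11RA the lines overlapped, since 1 HCC827 library reached 1.82 FPKM, above HCC827_Er libraries at 1.55 and 1.61 FPKM. The other 5 chains were not tested. CSF3R, the receptor of the granulocyte factor G-CSF, averaged 1.07 ± 0.0681 FPKM in HCC827_Er and 0.0433 ± 0.0751 FPKM in HCC827. IL22RA1, a receptor of epithelial cells for interleukin-22, averaged 1.15 ± 0.156 FPKM in HCC827_Er and 0.243 ± 0.0404 FPKM in HCC827. IL2RA and IL2RB, chains of the interleukin-2 receptor of lymphocytes, and IL17REL averaged under 1 FPKM in both lines.

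**Figure D3:**
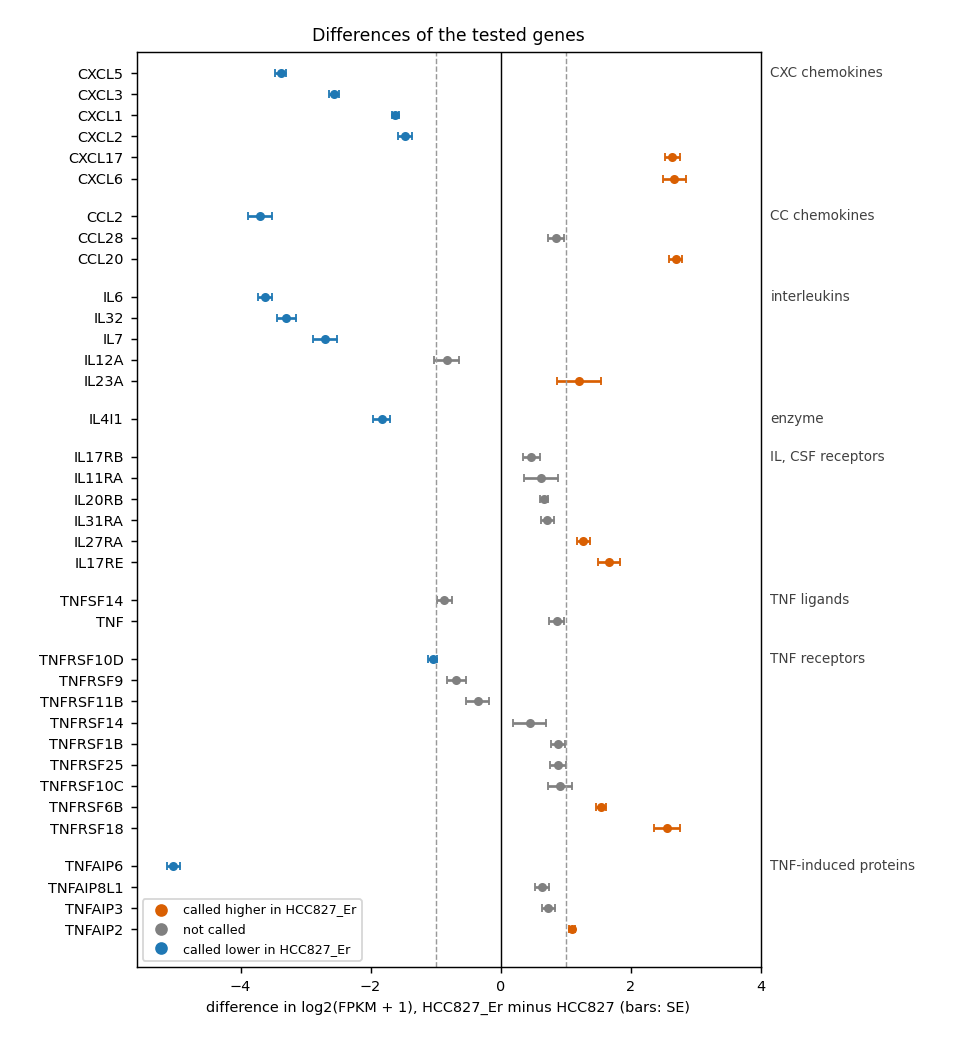
Difference of log2(FPKM + 1), HCC827_Er minus HCC827, for the 36 tested genes, grouped by role; bars are limma standard errors with 3 libraries per line, dashed lines mark a difference of 1 in size, and colour marks the call. Points of interleukin receptor chains all lie right of 0, and those of CXCL1, CXCL2, CXCL3, CXCL5, CCL2, IL6, IL32, IL7 and TNFAIP6 lie left of -1.

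The 2 listed ligands with TNF or TNFSF symbols, TNF and TNFSF14, stood under 2 FPKM in every library. TNF itself stood at 1.48, 1.10 and 1.09 FPKM in HCC827_Er, against 0.21, 0.29 and 0.16 FPKM in HCC827, a difference of 0.86 that was not called. TNFSF14, the ligand LIGHT, stood at 0.33, 0.36 and 0.43 FPKM in HCC827_Er, against 1.33, 1.34 and 1.86 FPKM in HCC827. Its difference of -0.86 was not called, and was -1.01 and called with median-ratio rescaling. The 2 ligands thus lay on opposite sides, with no overlap between the lines for either. A pseudocount of 0.1 turned both into calls, at 2.06 for TNF and -1.76 for TNFSF14.

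Of 9 tested TNF receptors, 2 were called higher in HCC827_Er and 1 lower (5 and 0 with equal sums), where 24.7% of all tested genes were called higher and 19.7% lower. The share called higher was near that of all tested genes and is no result about these receptors. TNFRSF6B encodes decoy receptor 3, a soluble protein that binds FAS ligand, LIGHT and TL1A. It stood at 87.6, 79.2 and 77.7 FPKM in HCC827_Er, against 29.8, 27.4 and 24.8 FPKM in HCC827 (difference 1.55, SE 0.082, adjusted p = 2.88e-07). All exonic bases of TNFRSF6B also belong to the readthrough gene RTEL1-TNFRSF6B on the same strand, so its reads cannot be assigned to it alone. TNFRSF18, the co-stimulatory receptor GITR of T cells, stood at 12.3, 7.76 and 6.82 FPKM in HCC827_Er, against 0.81, 0.52 and 0.63 FPKM in HCC827 (difference 2.56, SE 0.20, adjusted p = 2.91e-06). One HCC827_Er library stood above the other two, and all 3 lay well above HCC827. TNFRSF18 passed the minimum for testing through HCC827_Er alone. TNFRSF10D, a decoy receptor of the death ligand TRAIL, stood at 15.3, 14.6 and 15.3 FPKM in HCC827_Er, against 33.8, 30.6 and 32.0 FPKM in HCC827. Its difference of -1.05 (SE 0.072) was -0.81 with equal sums and then not called.

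TNFRSF25, the receptor of TL1A, stood at 39.8, 34.4 and 31.1 FPKM in HCC827_Er, against 21.8, 18.2 and 15.8 FPKM in HCC827. The lines did not overlap, and the difference of 0.89 (SE 0.13) was not called, and was 1.12 and called with equal sums. TNFRSF1B, the second receptor of TNF, averaged 10.3 ± 0.873 FPKM in HCC827_Er and 5.15 ± 0.573 FPKM in HCC827 (difference 0.88, and 1.10 with equal sums, called). TNFRSF10C, another TRAIL decoy, averaged 2.35 ± 0.535 FPKM in HCC827_Er and 0.790 ± 0.396 FPKM in HCC827. Its difference of 0.92 was not called, but it was with equal sums (1.05) and without HCC827_Er replicate 1 (1.05) or HCC827 replicate 3 (1.08). It shares 77.1% of aligned coding bases with TNFRSF10D, and a noncoding gene on the same strand covers 26.0% of its exonic bases. TNFRSF9, the co-stimulatory receptor 4-1BB, averaged 2.12 ± 0.503 FPKM in HCC827_Er and 3.97 ± 0.383 FPKM in HCC827 and was not called.

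For TNFRSF14, the receptor of LIGHT, the lines overlapped, with 11.6, 4.91 and 6.23 FPKM in HCC827_Er and 4.21, 5.24 and 5.52 FPKM in HCC827. They also overlapped for TNFRSF11B, which encodes osteoprotegerin, at 0.39 to 1.18 FPKM in HCC827_Er and 0.91 to 1.39 FPKM in HCC827. These were the 2 of the 36 tested genes with an adjusted p above 0.05. TNFRSF19 averaged 0.113 ± 0.0723 FPKM in HCC827_Er and 1.39 ± 0.404 FPKM in HCC827. TNFRSF13C, the receptor of the B cell factor BAFF, averaged 0.643 ± 0.191 FPKM in HCC827_Er and 0.137 ± 0.0551 FPKM in HCC827, and neither was tested. By position, 5 of the receptor genes lie on the short arm of chromosome 1 (TNFRSF18, TNFRSF14, TNFRSF25, TNFRSF9 and TNFRSF1B). Of these 4 had a positive difference and TNFRSF9 a negative one, and only TNFRSF18 was called. Among all 5276 tested genes, 2712 had a positive difference.

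Of 4 tested genes with a TNFAIP symbol, which stands for TNF-induced protein, 1 was called lower and 1 higher (1 and 0 with median-ratio rescaling). Over all tested genes, 19.7% were called lower and 24.7% higher. TNFAIP6 (ENSG00000123610, chromosome 2, 151357592 to 151380048) encodes TSG-6, a secreted protein that binds hyaluronan and is induced in inflammation. It stood at 0.09, 0.10 and 0.05 FPKM in HCC827_Er libraries, against 34.7, 35.8 and 32.7 FPKM in HCC827 libraries (difference -5.03, SE 0.10, adjusted p = 1.44e-09). The transcript was thus abundant in every HCC827 library and near 0 in every HCC827_Er library. TNFAIP6 passed the minimum for testing through HCC827 alone. Its RefSeq window held no match to the kappaB consensus. TNFAIP2, a gene with a role in membrane protrusions, was by contrast the most abundant of the 51 genes in HCC827_Er. It stood at 643, 622 and 618 FPKM there, against 288, 282 and 303 FPKM in HCC827. The difference of 1.11 (SE 0.046) was 0.76 with median-ratio rescaling and then not called. TNFAIP3, which encodes the ubiquitin-editing inhibitor A20 of NF-kB signalling, stood at 27.4, 29.1 and 29.2 FPKM in HCC827_Er, against 16.9, 14.5 and 19.2 FPKM in HCC827. Its lines did not overlap, and its difference of 0.74 (SE 0.10) lay under the 2-fold minimum. TNFAIP8L1 averaged 6.58 ± 0.181 FPKM in HCC827_Er and 3.88 ± 0.303 FPKM in HCC827 and was not called.

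**Figure D4:**
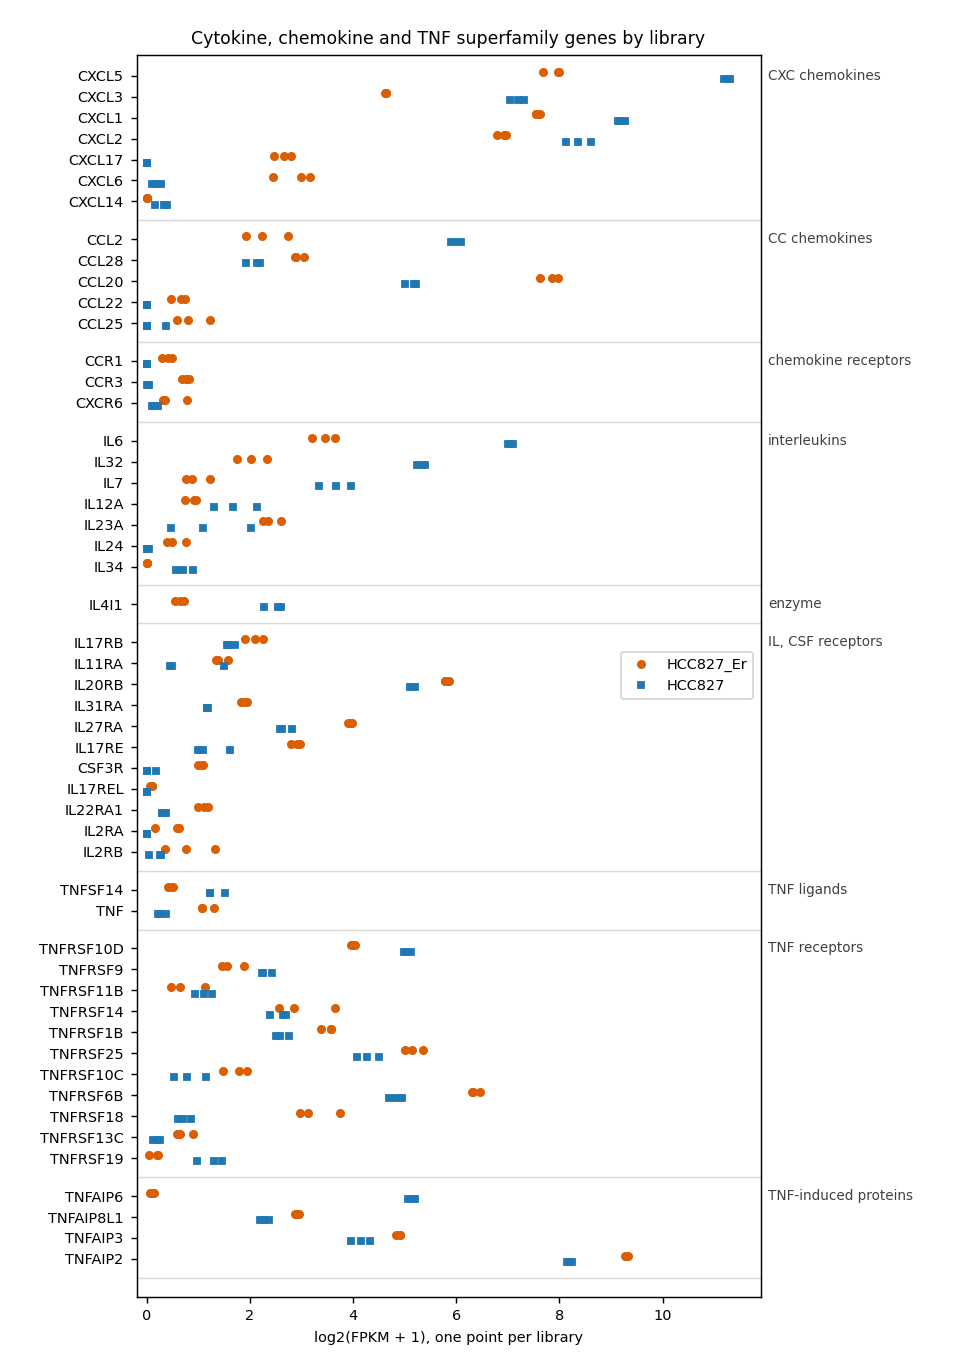
Values of all 51 genes as log2(FPKM + 1), 1 point per library (circles, HCC827_Er; squares, HCC827), grouped by role. CXCL5 is the most abundant gene in HCC827 and TNFAIP2 in HCC827_Er, TNFAIP6 is near 0 in HCC827_Er, and the lines overlap for IL11RA, TNFRSF11B and TNFRSF14 alone.

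The 15 genes not tested reached at most 1.76 FPKM in any library. Among them 12 were higher in every HCC827_Er library and 3 were lower in every one (CXCL14, IL34 and TNFRSF19); over all listed genes 96.1% had no overlap and 50.7% stood higher in every HCC827_Er library. CCL22, CCR1, IL2RA and IL17REL were listed at 0 in all HCC827 libraries. Several of these genes are best known from leukocytes, and in bulk RNA fewer cells of a type and less RNA per cell cannot be told apart. Of 18 leukocyte markers, 8 were listed and 7 tested. Of the 7 tested, 6 were called higher in HCC827_Er (5 with median-ratio rescaling), where 24.7% of all tested genes were. CD68, a macrophage marker and the most abundant of the 8, averaged 117 ± 4.36 FPKM in HCC827_Er and 174 ± 3.10 FPKM in HCC827 (difference -0.57, not called). ITGAM, an integrin of myeloid cells, was not tested and averaged 0.187 ± 0.0462 FPKM in HCC827_Er and 0.897 ± 0.282 FPKM in HCC827. CORO1A, an actin regulator of leukocytes, averaged 7.66 ± 0.966 FPKM in HCC827_Er and 0.703 ± 0.189 FPKM in HCC827. CSF1R, a receptor of macrophages, averaged 5.45 ± 1.71 FPKM in HCC827_Er and 0.230 ± 0.227 FPKM in HCC827. HLA-DRA, an antigen-presenting molecule, averaged 6.92 ± 0.185 FPKM in HCC827_Er and 1.14 ± 0.544 FPKM in HCC827. The 8 markers summed to 141 to 154 FPKM in HCC827_Er libraries and 176 to 181 FPKM in HCC827 libraries, mostly from CD68, and none was at 0 in a library; their part in the low receptor levels was not tested. Of 10 fibroblast markers 3 were listed, with COL1A1 called higher at 10.1 ± 0.932 FPKM in HCC827_Er and 0.75 ± 0.243 FPKM in HCC827, and COL3A1 listed at 0 in every HCC827_Er library. Median-ratio rescaling gave 1 fibroblast marker as lower. Of 8 endothelial markers 2 were listed, with EGFL7 at 6.61 ± 0.386 FPKM in HCC827_Er and 9.07 ± 0.551 FPKM in HCC827, not called, and CDH5 listed at 0 in every HCC827 library.

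Signalling genes around the cytokines moved both ways. The counts of each list below stand beside 19.7% of all tested genes called lower and 24.7% called higher. Of the NF-kB subunits and inhibitors, 8 of 16 were listed, 3 were called lower and 1 higher (4 and 0 with median-ratio rescaling, 1 and 3 with equal sums), with a median difference of -0.15 that turned to 0.08 with equal sums. NFKBIZ, a nuclear cofactor needed to induce IL6 in mouse macrophages, fell to 93.1 ± 0.701 FPKM in HCC827_Er, against 236 ± 3.31 FPKM in HCC827 (difference -1.33, SE 0.044). The inhibitor NFKBIE averaged 5.59 ± 0.671 FPKM in HCC827_Er and 13.6 ± 0.896 FPKM in HCC827 (difference -1.15, and -0.93 with equal sums, not called). The subunit REL averaged 5.31 ± 0.287 FPKM in HCC827_Er and 1.86 ± 0.0800 FPKM in HCC827 (difference 1.14, and 0.88 with median-ratio rescaling, not called).

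Of the adapters and ubiquitin ligases below TNF receptors, 12 of 32 were listed. Of these 6 were called lower and 1 higher (7 and 0, or 3 and 2, with the rescalings), where 19.7% and 24.7% of all tested genes were. BIRC3, a ubiquitin ligase of TNF receptor complexes, averaged 54.0 ± 5.47 FPKM in HCC827_Er and 218 ± 11.5 FPKM in HCC827 (difference -1.999, SE 0.080). TNIP3, a partner of A20, averaged 3.29 ± 0.480 FPKM in HCC827_Er and 17.2 ± 1.90 FPKM in HCC827 (difference -2.09, SE 0.12). The deubiquitinase CYLD averaged 5.21 ± 0.606 FPKM in HCC827_Er and 16.2 ± 1.43 FPKM in HCC827 (difference -1.47, SE 0.11). XIAP, an inhibitor of caspases, was the gene called higher. Of TNF superfamily genes under other symbols, 6 of 15 were listed and 4 tested, with LTB called higher and CD70 called lower. CD70, the ligand of CD27, averaged 1.95 ± 0.674 FPKM in HCC827_Er and 6.17 ± 0.453 FPKM in HCC827 (difference -1.31, SE 0.17).

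Of 27 genes of the JAK-STAT pathway 14 were listed, with JAK1 and SOCS7 called lower and STAT4 higher (4 and 1, or 1 and 3, with the rescalings). SOCS7, of the family of cytokine signalling suppressors, averaged 11.1 ± 1.27 FPKM in HCC827_Er and 47.9 ± 0.351 FPKM in HCC827 (difference -2.02, SE 0.087). JAK1, the kinase bound to the receptor of interleukin-6, averaged 104 ± 4.74 FPKM in HCC827_Er and 213 ± 6.11 FPKM in HCC827, and its difference of -1.03 was -0.79 with equal sums and -0.995 without HCC827_Er replicate 1, neither called. The list of the interleukin-6 family under other symbols also held CRLF2, which is not of that family. Of its 11 genes 7 were listed, with CRLF2 and LIFR called higher and none lower (1 higher and 3 lower with median-ratio rescaling). The other 5 had negative differences. CRLF2, the receptor of the epithelial cytokine TSLP, averaged 6.23 ± 0.932 FPKM in HCC827_Er and 0.163 ± 0.0862 FPKM in HCC827 (difference 2.63, SE 0.13).

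A further list held other chemokines, atypical chemokine receptors and CMTM genes, which encode membrane proteins that are neither. Of its genes, 4 of 20 were listed, 3 were tested and none was called. CX3CL1, a membrane-bound chemokine, averaged 40.5 ± 1.00 FPKM in HCC827_Er and 59.9 ± 1.75 FPKM in HCC827. CMTM3 averaged 31.2 ± 2.28 FPKM in HCC827_Er and 60.95 ± 1.02 FPKM in HCC827 (difference -0.95, called with median-ratio rescaling and without HCC827_Er replicate 2). Of other secreted factors and cytokine receptors, 6 of 24 were listed, with 2 of 4 tested called higher and 1 lower. EPOR, the erythropoietin receptor, averaged 13.03 ± 0.571 FPKM in HCC827_Er and 2.91 ± 0.301 FPKM in HCC827 (difference 1.85, SE 0.10). VEGFA, an angiogenic factor, averaged 319.97 ± 7.39 FPKM in HCC827_Er and 93.7 ± 4.30 FPKM in HCC827 (difference 1.76). SPP1, which encodes osteopontin, averaged 44.2 ± 2.40 FPKM in HCC827_Er and 4145 ± 119 FPKM in HCC827 (difference -6.52).

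**Figure D5:**
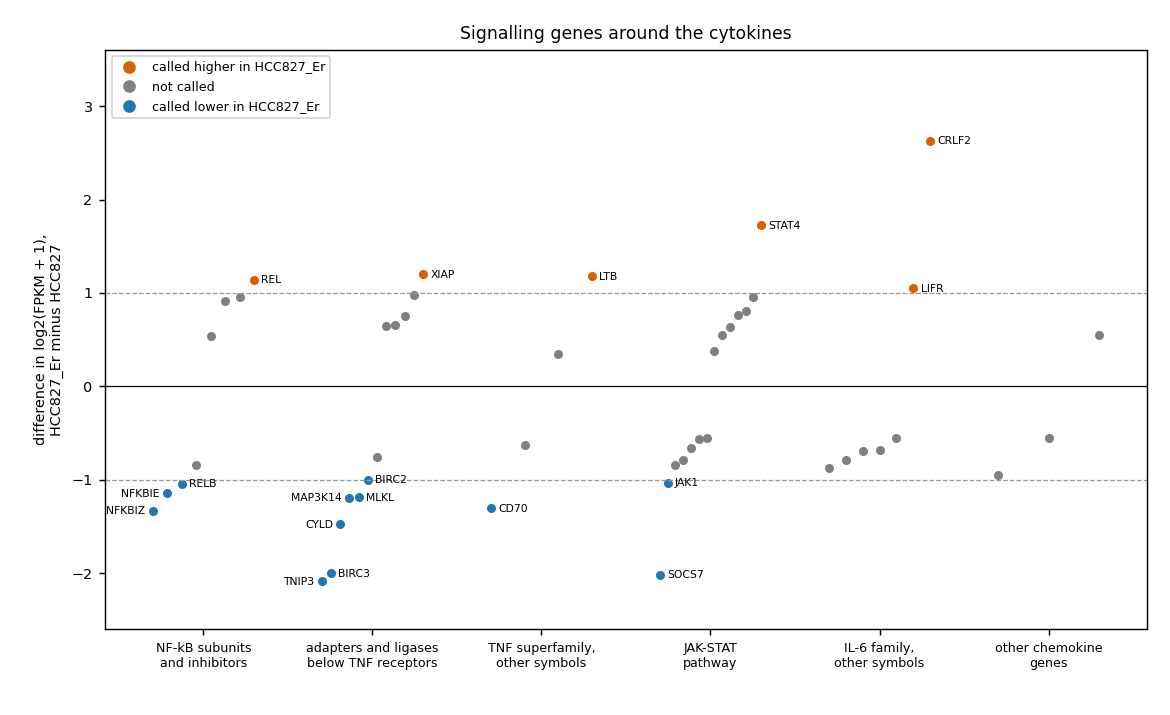
Difference of log2(FPKM + 1), HCC827_Er minus HCC827, of the tested genes of 6 signalling lists, 1 point per gene, with called genes labelled and dashed lines at a difference of 1 in size. Genes below TNF receptors hold the called falls of TNIP3, BIRC3, CYLD, MAP3K14, MLKL and BIRC2, and the rise of XIAP.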

How the data were processed

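RNA of 6 libraries, 3 of HCC827_Er and 3 of HCC827, was prepared with a TruSeq RNA kit, as the labels' protocols say. What the authors deposited is 1 table of FPKM per Ensembl identifier. The submitters' processing notes name fastp, HISAT2 and StringTie, and the builds GRCh38.p14 and hg19, without versions or roles. The sources used here do not give the annotation, the strandedness or the rule for listing genes. FPKM hides depth, and a few abundant transcripts lower all other values.

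Symbols were matched for 6636 of 6641 identifiers. Gene types and positions came from GENCODE 29 on GRCh38, which lists 6353. The 5276 genes that reached 1 FPKM in 3 or more libraries were fitted with limma 3.58.1 in R 4.3.3 on log2(FPKM + 1), with cell line as the only term and a mean-variance trend. Benjamini-Hochberg adjustment ran over all of them. The fit was first run on simulated data in which most genes were unchanged, unlike here. That run is no support for the calls. For a single gene, exact permutation of 3 against 3 libraries reaches no two-sided p under 0.1.

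Members and lists were chosen with earlier results of these data known. Library values are given for called members with a mean of at least 5 FPKM in the higher line, for members with a mean of at least 20 FPKM in either line, and for members listed at 0 in one line with a mean of at least 1 FPKM in the other; the rest are given as means, ranges or counts. TNF, TNFSF14 and TNFRSF14 were added to these after their values were seen. Other lists are named by up to 3 called genes with the largest differences and a mean of at least 5 FPKM in the higher line, or by the 2 most abundant tested genes where none was called. KRT8, CD68, ITGAM, COL3A1, CDH5, LTB, LIFR, STAT4, XIAP, MAP3K14, MLKL and BIRC2 were named after their values were seen. Coding alignments used the longest open reading frame of GENCODE 29 transcripts. No 2 libraries of a line shared more than 4 identical values at 10 FPKM or more. Alternatives were other pseudocounts, FPKM minima and scalings, limma without the trend, a replicate block and each library left out.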

Additional observations from a re-analysis of the deposited data

How the results depend on the processing

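Of the 20 called genes, 14 kept their call under every alternative that tested them, and no difference changed sign in any. Those that lost it in some were IL17RE, IL23A, IL27RA, IL4I1, TNFAIP2 and TNFRSF10D. With a pseudocount of 0.1, 14 of these genes were called higher, against 9; the scale raises low genes by construction. Over all tested genes, a pseudocount of 5 left 579 called higher and 506 lower, a minimum of 5 FPKM left 867 higher among 3584 tested, and median-ratio rescaling gave 902 higher and 1671 lower, where equal sums gave 1825 higher and 794 lower. The cause of the shift with rescaling was not tested. Leaving out any library gave 8 to 10 of these genes called higher and 11 or 12 called lower. Limma without the trend changed none of these calls, nor did the replicate block, which gave 9 higher and 11 lower. Replicate numbers gave no clear pairing of the libraries: same-numbered deviations correlated at 0.106, -0.022 and 0.049. HCC827_Er replicates 1 and 3 correlated best with their own number, and replicate 2 did not. Correlations this small cannot show whether the libraries were paired. A wider reading of the interleukin-1 exclusion gave the same 51 genes. The FPKM give no counts, so depth and counting error at values under 1 FPKM are unknown.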
